A study of Mus musculus with 24 samples.

Results

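Keratin-associated proteins (KAPs) are small proteins of the hair fiber. In these skin libraries they are represented by 55 genes whose symbol begins with Krtap and that reached at least 1 FPKM (fragments mapped to a gene, divided by its length and by the size of the library) in at least 4 of 24 libraries. The deposited table lists 56 Krtap genes among 18892 genes, and the 1 that fell short, Krtap13, had a fourth-highest value of 0.148 FPKM. Just inside the limit, Krtap20-2 had a fourth-highest value of 3.71 FPKM and Krtap4-13 one of 8.11 FPKM. Of the 55 genes, 52 were at or above 1 FPKM in every library, and the exceptions were Krtap20-2 (16 libraries), Krtap5-2 (18) and Krtap5-3 (18).

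The study injected mice daily and treated their skin topically, and took skin for poly(A) RNA sequencing at day 10 or day 15. Treatment mice received injections of dihydrotestosterone (DHT, the potent androgen formed from testosterone) and a topical extract of Hanlianxiang (HLX, a traditional Chinese medicine formula). Model mice received the same DHT injections with the topical solvent alone, and control mice received saline injections with the solvent. Each of the 6 combinations of treatment and day holds 4 mice, assigned at random, and each library is the skin of 1 mouse. All 3 arms were therefore injected every day and had a liquid applied to the skin, and the extract was given only together with DHT. The strain, age, sex and skin site of the mice are not given in the sources used here.

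In a growing hair, cells leaving the follicle matrix first fill with keratin filaments and then, higher in the shaft, make KAPs, which surround the filaments as a matrix. High sulfur and ultra-high sulfur KAPs are rich in cysteine, whose disulfide bonds cross-link the fiber, and high glycine-tyrosine KAPs are rich in glycine and tyrosine. The transcripts are made during hair growth, in the cortex and cuticle of the shaft. By the number in their symbol, 15 of the 55 genes belong to high glycine-tyrosine subfamilies, 20 to high sulfur and 17 to ultra-high sulfur subfamilies. The remaining 3, Krtap28-13, Krtap31-1 and Krtap31-2, carry numbers that were not assigned to a class. Krtap16-1 and Krtap16-3 share a number and lie on different chromosomes, so their class by number is uncertain. Both are counted here with the high sulfur genes. Krtap16-3 is also known as Krtap16-10, and some genes counted as high glycine-tyrosine, such as Krtap19-2 and Krtap21-1, have Krtap16 names as synonyms too.

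The genes lie in clusters. RefSeq places 23 of them on mouse chromosome 16, among them all 15 high glycine-tyrosine genes, 23 on chromosome 11, 5 (the Krtap5 subfamily) on chromosome 7, 3 on chromosome 10 and 1 on chromosome 1. Neighbours in a cluster can resemble each other upstream of the gene. The 150 bases upstream of the annotated start are shown for 9 genes on which the results turn, from RefSeq promoter sequences of build GRCm38.p6. They are the gene with the highest level (Krtap8-1), genes with the smallest p-values at day 15 (Krtap3-2, Krtap4-8 and Krtap4-9), a trio that moved together at day 10 (Krtap31-1, Krtap31-2 and Krtap9-5) and a pair that was lower at day 15 than at day 10 (Krtap5-2 and Krtap5-3). Capitals mark TATAAA, the consensus core of the TATA box.
Krtap8-1, chr16:89487953-89488102, minus strand: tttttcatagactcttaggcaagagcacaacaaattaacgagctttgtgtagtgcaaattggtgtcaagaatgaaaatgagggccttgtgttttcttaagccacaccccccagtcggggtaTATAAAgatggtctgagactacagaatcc
Krtap3-2, chr11:99556854-99557003, minus strand: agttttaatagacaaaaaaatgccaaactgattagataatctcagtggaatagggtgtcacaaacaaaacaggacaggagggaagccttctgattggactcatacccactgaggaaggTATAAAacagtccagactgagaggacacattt
Krtap4-8, chr11:99780644-99780793, minus strand: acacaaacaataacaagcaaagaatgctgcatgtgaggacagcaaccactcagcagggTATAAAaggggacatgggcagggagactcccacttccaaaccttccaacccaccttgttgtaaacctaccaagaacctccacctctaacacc
Krtap4-9, chr11:99785050-99785199, plus strand: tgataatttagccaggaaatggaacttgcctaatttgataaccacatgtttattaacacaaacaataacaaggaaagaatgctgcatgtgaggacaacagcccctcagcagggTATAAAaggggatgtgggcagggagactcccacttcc
Krtap31-1, chr11:99907770-99907919, plus strand: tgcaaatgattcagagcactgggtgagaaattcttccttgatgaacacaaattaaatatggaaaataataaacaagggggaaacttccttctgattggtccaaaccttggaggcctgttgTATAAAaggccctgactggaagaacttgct
Krtap31-2, chr11:99936141-99936290, plus strand: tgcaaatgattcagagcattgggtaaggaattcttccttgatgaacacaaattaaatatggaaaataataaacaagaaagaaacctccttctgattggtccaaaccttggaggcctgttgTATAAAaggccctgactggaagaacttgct
Krtap9-5, chr11:99948274-99948423, plus strand: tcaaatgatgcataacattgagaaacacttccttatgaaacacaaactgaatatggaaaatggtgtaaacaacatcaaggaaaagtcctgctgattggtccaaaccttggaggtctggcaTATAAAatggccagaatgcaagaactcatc
Krtap5-2, chr7:142176006-142176155, minus strand: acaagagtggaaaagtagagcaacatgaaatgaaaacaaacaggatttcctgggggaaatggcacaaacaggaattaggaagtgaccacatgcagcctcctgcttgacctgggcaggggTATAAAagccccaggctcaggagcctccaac
Krtap5-3, chr7:142201214-142201363, plus strand: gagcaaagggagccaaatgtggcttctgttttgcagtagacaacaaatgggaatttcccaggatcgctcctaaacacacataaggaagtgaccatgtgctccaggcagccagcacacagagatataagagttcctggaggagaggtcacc

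A TATAAA on either strand lay in the 300-base window (250 bases before to 50 after the start) of 41 of the 50 matched Krtap genes (82.0%), against 14.2% of 27025 windows of all genes. CTTTGA, the core of the LEF1/TCF motif, searched on both strands, lay in 15 (30.0%) against 16.2% of all windows, and CCAAT, on both strands, in 18 (36.0%) against 37.9%. Matches of different motifs were counted independently and may overlap, and a match is a description of letters. Annotated starts can be imprecise. Bases just after the start were found in a GENCODE transcript of the same gene for 40 of the 50. The TATAAA of Krtap4-8 lay farther from its annotated start than that of Krtap4-9. The RefSeq length of Krtap4-8 is 630 bases, against 983 in GENCODE. Whether part of its upstream sequence is transcribed was not tested. Over the 250 bases before the start, Krtap31-1 and Krtap31-2 were 86.9% identical. Krtap9-5 was 66.5% identical to Krtap31-1 and 67.4% to Krtap31-2, where the median of 1225 pairs was 51.5%. Other pairs were more alike than Krtap9-5 was to these genes, such as Krtap4-6 with Krtap4-9 (77.5%) and with Krtap4-13 (74.1%). Whether upstream identity goes with changes in level was not tested. The longest run common to the trio was ctgattggtccaaaccttggagg (23 bases), which 4 of the 27025 windows held. Krtap4-8 and Krtap4-9 shared tgtttattaacacaaacaataacaag (26 bases), and Krtap5-2 and Krtap5-3 shared aggaagtgacca (12 bases).

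Close copies limit what a count per gene can say. In GENCODE transcripts, 36.7% of the 100-base windows of Krtap3-3 and 25.1% of those of Krtap3-2 were found in another gene, chiefly the other of the pair, and likewise 31.2% for Krtap31-2 and 29.9% for Krtap31-1. Values of these 4 genes are uncertain to the extent that reads were split or dropped. For the other 51 genes the share was at most 6.31%, and it was 0 for 41. Whether reads were counted by strand is not given in the sources used here.

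Some libraries stood apart from their group. Recovered depths were even, from 37048896 to 41117262 reads per library, and correlations between libraries of a group, across genes, were at least 0.9283. Model replicate 1 of day 10 was the highest of its group in 53 of 55 Krtap genes. Model replicate 2 of day 15 was the lowest of its group in 50 of 55. In 4 treatment libraries (replicates 1, 2 and 4 of day 15 and replicate 3 of day 10) the summed level of 4 Y-linked genes was 22.3 to 33.4 FPKM, against 39.2 to 50.6 FPKM in the other 20. Kidney transcripts (7 genes, 3 of them above the limit for testing) summed to 17.2 to 24.8 FPKM in model and 24.7 to 28.7 FPKM in control mice at day 10, and to at most 0.17 FPKM in the other 4 groups. The part of these differences in the results that follow was not tested, except where a count without such a library is given.

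Summed over the 55 genes, KAP transcripts were lowest in model mice on both days. At day 15 the sums were 28230, 21750, 27900 and 25750 FPKM in treatment mice, 19860, 10150, 14630 and 15950 FPKM in model mice and 31350, 33020, 24570 and 31070 FPKM in control mice. No model library reached the level of any treatment or control library on that day. At day 10 the sums were 16780, 12600, 12820 and 18470 FPKM in treatment mice, 17050, 9447, 5987 and 6493 FPKM in model mice and 25810, 18490, 22390 and 19080 FPKM in control mice. Here the groups overlapped between treatment and model mice, through model replicate 1, and both lay below every control mouse. In whole skin, fewer hair-forming cells and less RNA per cell cannot be told apart. The sum amounted to 1.45% to 7.48% of all FPKM of a library and 0.431% to 2.29% of its reads.

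**Figure D1:**
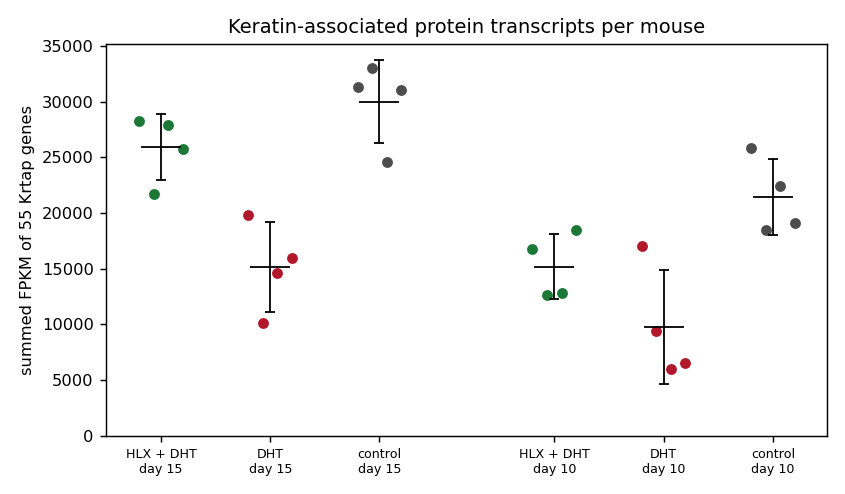
Summed FPKM of the 55 Krtap genes in each of 24 mice (points), with the mean (horizontal mark) and SD (whiskers) of each group of 4, for treatment (HLX + DHT), model (DHT) and control mice at day 15 and day 10. Model mice at day 15 lie between 10150 and 19860 FPKM, below all treatment and control mice of that day, and at day 10 model replicate 1 (17050 FPKM) stands above the other 3.

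High glycine-tyrosine genes made up 49.2% to 55.8% of the summed FPKM across the 24 libraries, high sulfur genes 36.6% to 42.5% and ultra-high sulfur genes 4.50% (control replicate 3 of day 10) to 9.40% (model replicate 4 of day 10). A few genes carried much of it. The 5 with the highest mean, Krtap8-1, Krtap7-1, Krtap15, Krtap22-2 and Krtap14, held 46.5% of the summed mean, and levels ran from a mean of 3076 FPKM (Krtap8-1) to 1.84 FPKM (Krtap20-2).

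DHT injection was set against saline by comparing model with control mice, with limma on log2(FPKM + 1) and p-values adjusted over 13039 genes (a gene is called at an adjusted p under 0.05). At day 15, 28 of the 55 genes fell and none rose, where 6.56% of all genes tested were called lower, 4.23% higher and 10.8% in either direction. The median log2 difference was -0.96 over the 55 genes and -0.03 over all genes, and 51 of the 55 were below 0. At day 10, 33 fell and none rose, where 7.04% of all genes were called lower, 6.79% higher and 13.8% in either direction, with a median of -0.91 over the 55 genes and -0.02 over all. The libraries of both groups did not overlap in 31 of the 55 genes at day 15 (12.3% of all genes lay wholly below control) and in 14 at day 10 (9.30%). Of the genes called, 18 were called on both days, which is 64.3% of the 28 at day 15 and 54.5% of the 33 at day 10. The count at day 15 was 15 without model replicate 2, 18 without control replicate 2 and 16 without control replicate 4, where 501, 500 and 363 of all genes were called in place of 1408. At day 10 it was 15 without model replicate 3 and 19 without model replicate 4, where 536 and 815 of all genes were called in place of 1803. On each day 15 genes were called in all 8 fits that left out 1 library, and the others lost their call in at least 1 of them.

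The extract was tested by comparing treatment with model mice. At day 15, 22 of the 55 genes rose and none fell, where 10.3% of all genes were called higher, 9.32% lower and 19.7% in either direction, with a median log2 difference of 0.64 over the 55 genes and -0.02 over all. In 21 genes all 4 treatment libraries lay above all 4 model libraries (7.98% of all genes). At day 10 limma called none of the 55 (0.0920% of all genes were called higher, 0.0997% lower and 0.192% in either direction), 37 had an unadjusted p under 0.05, the lowest adjusted p was 0.195 and voom on recovered reads also called 0. All 55 differences were above 0 at day 10, with a median of 0.66. The count at day 15 moved with single libraries. It was 2 (Krtap3-1 and Krtap3-2) without model replicate 2, where 1684 of the 13039 genes were called in place of 2563, and 6 without treatment replicate 1, where 1221 were called. Without the 4 treatment libraries of low Y-linked level, which leaves 1 treatment library at day 15, assumed to vary like the other groups, it was 1 although 3845 of all genes were called. When only the 2 groups were fitted, limma called 0 of the 13039 genes, so the 0 of the 55 is not particular to them, and 31 of the 55 had an unadjusted p under 0.05. Without model replicate 1, 17 genes were called higher at day 10, where 0.475% of all genes were called higher.

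**Figure D2:**
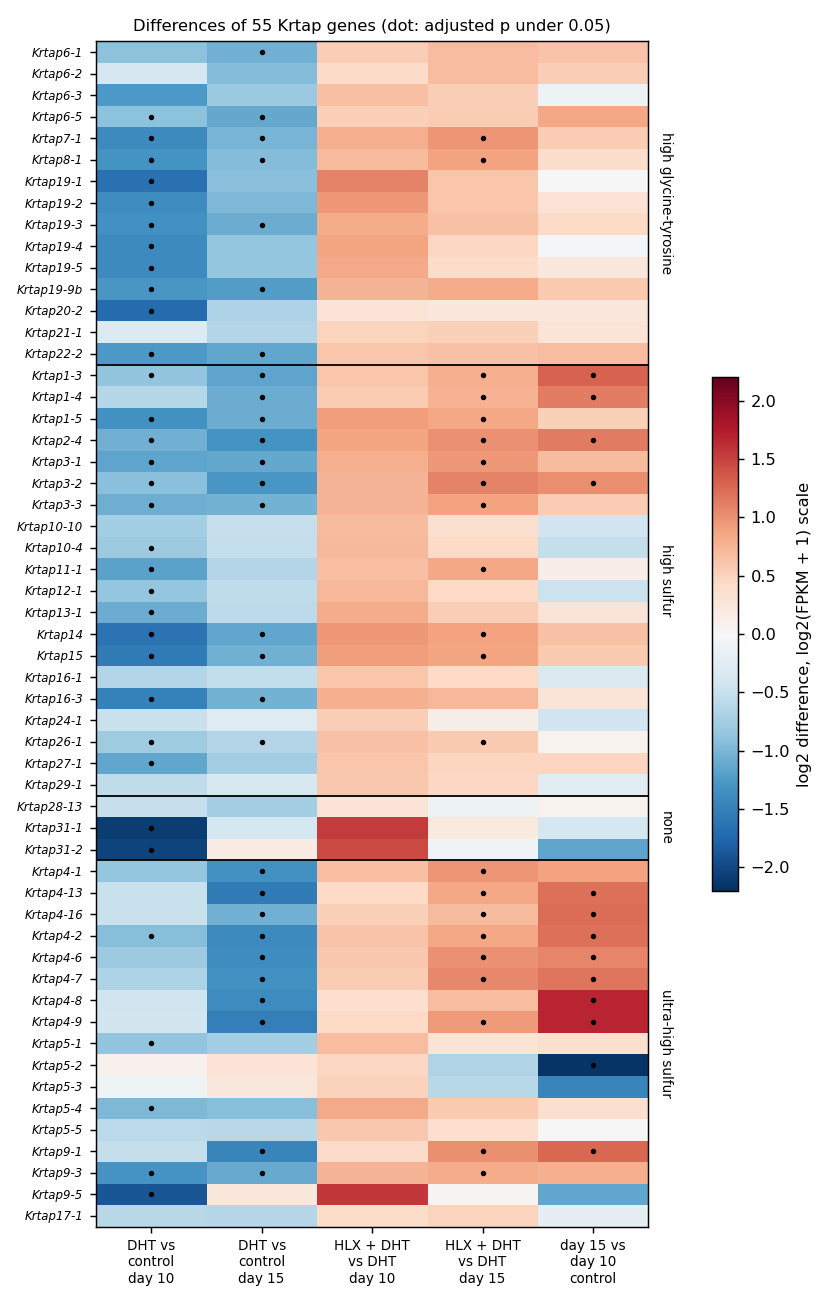
Log2 differences of the 55 Krtap genes (rows, by class and subfamily; none marks the 3 genes not classed by number) in 5 comparisons (columns), on the log2(FPKM + 1) scale, blue for lower and red for higher in the group named first; a black dot marks an adjusted p under 0.05. The dots number 33 and 28 in the model-control columns of day 10 and day 15, 0 and 22 in the treatment-model columns of those days and 13 in the column of day 15 against day 10 in control mice.

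The high glycine-tyrosine genes, which encode the tyrosine-rich proteins of the fiber, fell in 7 of 15 at day 15 (median -0.96) and in 11 of 15 at day 10 (median -1.32) in model against control mice. Of all genes, 6.56% were called lower there at day 15 and 7.04% at day 10. In treatment against model mice at day 15, 2 of 15 rose (median 0.62), a share near that of all genes, of which 10.3% were called higher. Krtap8-1, the single-copy gene of its subfamily, was the most abundant KAP transcript. At day 15 Krtap8-1 had 5063, 3597, 4865 and 3780 FPKM in treatment mice, 3015, 1669, 2252 and 2481 FPKM in model mice and 4337, 5055, 4010 and 4612 FPKM in control mice. At day 10 Krtap8-1 had 2476, 1880, 2019 and 2682 FPKM in treatment mice, 2719, 1464, 895 and 1005 FPKM in model mice and 3778, 2770, 4181 and 3209 FPKM in control mice. Model mice lay below all control mice on both days, and below all treatment mice at day 15 only, where at day 10 model replicate 1 was above every treatment mouse. Model against control differed by -0.96 (SE 0.25, adjusted p = 0.0233) at day 15 and -1.32 (SE 0.25, adjusted p = 0.00397) at day 10 on the log2 scale, and treatment against model by 0.89 (SE 0.25, adjusted p = 0.0187) at day 15 and 0.70 (adjusted p = 0.314) at day 10.

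Krtap7-1, which encodes the KAP7 protein of the cortex and came next in level, had 4098, 2867, 3787 and 2903 FPKM in treatment mice, 2216, 1259, 1731 and 1790 FPKM in model mice and 3387, 3820, 3124 and 3587 FPKM in control mice at day 15. Its day 10 values were 1758, 1264, 1407 and 1826 FPKM in treatment mice, 1836, 922, 588 and 633 FPKM in model mice and 2601, 1775, 3064 and 2162 FPKM in control mice. The pattern was that of Krtap8-1, except that model replicate 1 of day 10 reached above control replicate 2. Model against control differed by -1.02 (adjusted p = 0.0227) at day 15 and -1.40 (adjusted p = 0.00378) at day 10, and treatment against model by 0.97 (adjusted p = 0.0153) at day 15. These were the only high glycine-tyrosine genes called in treatment against model mice. Both calls were lost without model replicate 2 or treatment replicate 1 of day 15, and both genes' calls against control at day 15 were lost without any 1 of model replicates 2 and 3 and control replicates 2, 3 and 4 (adjusted p up to 0.076 for Krtap8-1 and 0.073 for Krtap7-1).

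Krtap22-2, on chromosome 16 with the others, had 1131, 757, 1443 and 1126 FPKM in treatment mice, 968, 471, 709 and 720.1 FPKM in model mice and 1656, 1706, 1225 and 1606 FPKM in control mice at day 15. In day 10 skin Krtap22-2 had 761, 506, 469.8 and 779 FPKM in treatment mice, 760.5, 415, 268 and 299 FPKM in model mice and 1221, 903, 928 and 819 FPKM in control mice. Model mice were below all control mice on both days, with log2 differences of -1.14 (adjusted p = 0.0171) at day 15 and -1.26 (adjusted p = 0.0084) at day 10. Treatment against model at day 15 (0.64, adjusted p = 0.104) was not called, and model replicate 1 lay within the treatment range there. The call at day 15 was lost without model replicate 2, control replicate 2 or control replicate 4.

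Krtap19 is, with 6 genes, the largest high glycine-tyrosine subfamily here. In model against control mice 2 of 6 genes fell at day 15 (log2 differences -1.23 to -0.84), where 6.56% of all genes were called lower. At day 10 it was 6 of 6 (-1.65 to -1.27), where 7.04% of all genes were called lower. The most abundant, Krtap19-5, had 572, 537, 621 and 828 FPKM in treatment mice, 688, 294, 450.3 and 569.8 FPKM in model mice and 1034, 978, 644 and 844 FPKM in control mice at day 15. For day 10, Krtap19-5 values were 618, 410.5, 377 and 636 FPKM in treatment mice, 585, 301, 186 and 184 FPKM in model mice and 1045, 657, 634 and 667 FPKM in control mice. Model mice lay below all control mice at day 10 (log2 difference -1.39, adjusted p = 0.00915), and at day 15 model replicate 1 overlapped control replicate 3 and the difference of -0.85 (adjusted p = 0.0792) was not called. Krtap19-1 and Krtap19-2, whose upstream 250 bases were 90.6% identical, differed by -1.65 and -1.37 at day 10. Group means of the other 5 members ran from 304 to 609 FPKM in treatment, 224 to 358 FPKM in model and 396 to 838 FPKM in control mice at day 15, and from 284 to 396 FPKM in treatment, 154 to 243 FPKM in model and 382 to 554 FPKM in control mice at day 10.

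The 4 Krtap6 genes, the type II high glycine-tyrosine proteins, fell in 2 of 4 at day 15 and in 1 of 4 at day 10 in model against control mice. Of all genes, 6.56% and 7.04% were called lower on these days. Krtap6-1 had 663, 548, 684 and 789 FPKM in treatment mice, 631, 242, 461 and 428 FPKM in model mice and 983, 984, 628 and 925 FPKM in control mice at day 15. At day 10 Krtap6-1 had 518, 366, 316 and 605 FPKM in treatment mice, 518, 366, 197 and 219.9 FPKM in model mice and 720.4, 665, 365 and 566 FPKM in control mice. At day 15 only model replicate 1 reached the control range, at its lowest library, and the log2 difference was -1.05 (SE 0.31, adjusted p = 0.0353), a call lost without any 1 of 7 of the 8 libraries (all but model replicate 1). At day 10 the difference was -0.90 (adjusted p = 0.0558). Treatment replicates 1 and 2 and model replicates 1 and 2 of day 10 had nearly the same values. Krtap6-5 was called on both days (-1.12 at day 15 and -0.90 at day 10), and Krtap6-2 and Krtap6-3 on neither.

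Krtap21-1 spread widely within groups and was called in none of the 4 main comparisons. At day 15 Krtap21-1 had 153, 263, 138 and 293 FPKM in treatment mice, 232, 71.1, 139.6 and 161 FPKM in model mice and 288, 256, 140.1 and 217 FPKM in control mice. At day 10 Krtap21-1 had 221, 185, 155 and 277 FPKM in treatment mice, 211, 184, 102 and 112 FPKM in model mice and 250.2, 321, 83.2 and 149 FPKM in control mice. The 4 control mice of day 10 covered the whole range of the other groups of that day, and model against control differed by -0.65 at day 15 (95% interval -1.47 to 0.18) and -0.29 at day 10 (95% interval -1.12 to 0.53).

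Krtap20-2 had the lowest mean of the 55 genes and the smallest p in model against control mice at day 10. At day 10 Krtap20-2 had 0.552, 0.143, 0 and 1.2 FPKM in treatment mice, 0.241, 0.186, 0 and 0.147 FPKM in model mice and 2.42, 2.38, 2.15 and 3.98 FPKM in control mice. Every control mouse was above 2 FPKM and every other mouse of that day at or below 1.2, with 1 treatment and 1 model library listed at 0. At day 15 Krtap20-2 had 2.27, 1.62, 2.02 and 2.79 FPKM in treatment mice, 3.71, 0.806, 1.74 and 1.23 FPKM in model mice and 5.04, 2.87, 1.42 and 5.15 FPKM in control mice, and the groups overlapped. Model against control differed by -1.69 (SE 0.29, adjusted p = 0.00274) at day 10 and -0.69 (adjusted p = 0.123) at day 15. It was the only one of the 55 genes called in treatment against control mice at day 10 (-1.38, adjusted p = 0.0153), where 1.04% of all genes were called lower, 2.2% higher and 3.24% in either direction.

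The high sulfur genes, cysteine-rich proteins of the cortex and cuticle, fell in 11 of 20 at day 15 (median -0.90) and in 15 of 20 at day 10 (median -0.99) in model against control mice. In treatment against model mice 11 of 20 rose at day 15 (median 0.74). Of all genes, 6.56% were called lower at day 15 and 7.04% at day 10 in model against control mice. In treatment against model mice 10.3% of all genes were called higher at day 15. The most abundant was Krtap15, also known as Pmg2, on chromosome 16. At day 15 Krtap15 had 3212, 2228, 3323 and 2615 FPKM in treatment mice, 1913, 1131, 1620 and 1618 FPKM in model mice and 3216, 3601, 2783 and 3381 FPKM in control mice. At day 10 Krtap15 had 1554, 1163, 1277 and 1688 FPKM in treatment mice, 1626, 761, 487 and 504 FPKM in model mice and 2506, 1643, 2728 and 1948 FPKM in control mice. Model mice lay below all control mice on both days and below all treatment mice at day 15. Model against control differed by -1.07 (adjusted p = 0.0222) at day 15 and -1.54 (adjusted p = 0.00302) at day 10, and treatment against model by 0.86 (adjusted p = 0.0333) at day 15 and 0.92 (adjusted p = 0.219) at day 10. Its neighbour Krtap14, also known as Pmg1, had 1341, 917, 1344 and 1061 FPKM in treatment mice, 784, 467, 634 and 645 FPKM in model mice and 1364, 1533, 1176 and 1430 FPKM in control mice at day 15. Day 10 values of Krtap14 were 604, 446, 504 and 672 FPKM in treatment mice, 638, 293, 185 and 187 FPKM in model mice and 1035, 619, 1153 and 787 FPKM in control mice. At day 10 model replicate 1 of Krtap14 exceeded control replicate 2, and the other 3 model mice lay below all control mice. Krtap14 differed by -1.14 (adjusted p = 0.0202) at day 15 and -1.62 (adjusted p = 0.00292) at day 10 in model against control, and by 0.89 (adjusted p = 0.0365) at day 15 in treatment against model. The day 15 calls of both genes were lost without model replicate 2 and, for treatment against model, also without model replicate 3 or 4 or treatment replicate 1 or 3, and for model against control also without control replicate 2 or 4 (and model replicate 3 for Krtap15).

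Krtap16-3, with the highest mean of the genes numbered 16, had 948, 741, 1126 and 1027 FPKM in treatment mice, 756, 380.2, 565 and 668 FPKM in model mice and 1309, 1326, 956 and 1190 FPKM in control mice at day 15. At day 10 Krtap16-3 had 709, 500.4, 474 and 775 FPKM in treatment mice, 748, 369, 228 and 231 FPKM in model mice and 1271, 847, 1025 and 822 FPKM in control mice. Model mice were below all control mice on both days, and the log2 differences were -1.04 (adjusted p = 0.0307) at day 15 and -1.49 (adjusted p = 0.00472) at day 10. Treatment against model at day 15 (0.72, adjusted p = 0.0842) was not called, and the day 15 call against control was lost without any 1 of 6 libraries (model replicates 2 and 3 and all 4 control replicates).

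Krtap11-1, a single-copy gene of hair cortex, had 1385, 958, 1292 and 896 FPKM in treatment mice, 766, 472, 598 and 664 FPKM in model mice and 811, 1060, 1031 and 960.5 FPKM in control mice at day 15. All 4 model mice were below the others, and treatment replicates 1 and 3 lay above every control mouse. At day 10 Krtap11-1 had 649.8, 551, 569 and 666 FPKM in treatment mice, 717, 393, 272 and 285 FPKM in model mice and 847, 686, 1166 and 839.8 FPKM in control mice. Here every treatment mouse was below every control mouse. In treatment against model mice Krtap11-1 rose by 0.85 (adjusted p = 0.0166) on the log2 scale at day 15, a call lost without model replicate 2 or treatment replicate 1. Model against control was called at day 10 only, -1.17 (adjusted p = 0.00523), with -0.64 (adjusted p = 0.078) at day 15.

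Krtap13-1, a high sulfur gene of the same chromosome 16 cluster, had 526, 383, 523 and 406 FPKM in treatment mice, 378, 239, 310.1 and 332 FPKM in model mice and 402, 534, 438 and 486 FPKM in control mice at day 15. At day 10 Krtap13-1 had 315, 276, 300.1 and 358 FPKM in treatment mice, 368, 178, 123 and 118 FPKM in model mice and 416, 274, 471 and 377 FPKM in control mice. Although model mice were below all other mice at day 15, the differences of that day were not called, with -0.57 (adjusted p = 0.136) against control and 0.55 (adjusted p = 0.129) for treatment against model. At day 10 model against control was -1.10 (adjusted p = 0.0106), lost without model replicate 3. Krtap26-1, lower in level, had 185, 123, 180.4 and 134 FPKM in treatment mice, 123, 71.9, 94.8 and 129 FPKM in model mice and 137, 171, 162 and 172 FPKM in control mice at day 15. At day 10 Krtap26-1 had 140, 134, 128 and 144 FPKM in treatment mice, 148, 78.3, 70.96 and 70.7 FPKM in model mice and 158, 132, 157 and 157 FPKM in control mice. Model replicates 2, 3 and 4 of Krtap26-1 at day 10 were between 70.7 and 78.3 FPKM, below every mouse of the other groups of that day. Krtap26-1 fell on both days, by log2 differences of -0.64 (adjusted p = 0.0458) at day 15 and -0.78 (adjusted p = 0.0167) at day 10, and rose in treatment against model mice at day 15 (0.58, adjusted p = 0.0467), each call lost without at least 4 single libraries.

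On chromosome 11, the Krtap1, Krtap2 and Krtap3 genes, whose human counterparts are made in the hair cortex, are represented by 7 genes. All 7 fell at day 15 (6.56% of all genes were called lower) and 6 of 7 at day 10 (7.04%) in model against control. All 7 rose at day 15 in treatment against model (10.3% of all genes were called higher). Krtap1-5, the most abundant, had 1093, 847, 962 and 1030 FPKM in treatment mice, 744, 377, 522 and 578 FPKM in model mice and 1236, 1254, 909 and 1233 FPKM in control mice at day 15. At day 10 Krtap1-5 had 689.5, 492, 526 and 722 FPKM in treatment mice, 608, 329.5, 219.7 and 228 FPKM in model mice and 1052, 695, 842 and 654 FPKM in control mice. It differed by -1.09 (adjusted p = 0.0151) at day 15 and -1.33 (adjusted p = 0.00398) at day 10 in model against control, and by 0.86 (adjusted p = 0.0236) at day 15 and 0.92 (adjusted p = 0.195), the smallest p of the 55 genes, at day 10 in treatment against model. Krtap3-1 had 1086, 878, 927 and 914 FPKM in treatment mice, 665, 344, 478 and 529.5 FPKM in model mice and 1136, 1198, 901 and 1097 FPKM in control mice at day 15. At day 10 Krtap3-1 had 534, 423, 488 and 646 FPKM in treatment mice, 565, 293, 200.3 and 228 FPKM in model mice and 829, 589, 669.9 and 594 FPKM in control mice. In both genes model mice were below all control mice on both days and below all treatment mice at day 15. Krtap3-1 fell, with log2 differences of -1.13 (adjusted p = 0.00933) at day 15 and -1.17 (adjusted p = 0.00559) at day 10, and rose by 0.95 (adjusted p = 0.0107) in treatment against model mice at day 15, a call kept in every fit that left out 1 library.

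Krtap3-2, the gene with the smallest p in both main comparisons of day 15, had 350, 303, 289 and 341 FPKM in treatment mice, 217, 98.99, 154 and 151 FPKM in model mice and 402, 398, 268 and 404 FPKM in control mice on that day. At day 10 Krtap3-2 had 160, 132, 142 and 206 FPKM in treatment mice, 152, 102, 66.6 and 74.3 FPKM in model mice and 217, 176, 159 and 163 FPKM in control mice. No model mouse reached a control mouse on either day, or a treatment mouse at day 15. Its log2 differences were -1.27 (SE 0.23, adjusted p = 0.00496) at day 15 and -0.91 (SE 0.23, adjusted p = 0.0159) at day 10 in model against control, and 1.09 (SE 0.23, adjusted p = 0.00411) in treatment against model at day 15. Krtap3-3, which shares sequence with it, had 651, 558, 576 and 627 FPKM in treatment mice, 469.6, 214, 316 and 349.5 FPKM in model mice and 695, 733, 549 and 712 FPKM in control mice at day 15. At day 10 Krtap3-3 had 379, 306, 327 and 432 FPKM in treatment mice, 376, 226, 141 and 171 FPKM in model mice and 559, 413, 416 and 431 FPKM in control mice. The separation of the groups was that of Krtap3-2. Krtap3-3 differed by -1.04 (adjusted p = 0.013) at day 15 and -1.08 (adjusted p = 0.00777) at day 10 in model against control, and by 0.89 (adjusted p = 0.0132) in treatment against model at day 15. The last of these was lost without model replicate 2. Krtap2-4, the single Krtap2 gene here, had 213, 194, 171 and 216 FPKM in treatment mice, 143, 64.8, 102 and 99.3 FPKM in model mice and 293, 267, 168 and 277 FPKM in control mice at day 15. At day 10 Krtap2-4 had 106, 77.5, 87.96 and 118 FPKM in treatment mice, 87.8, 59.6, 31.1 and 46.5 FPKM in model mice and 154, 105, 89.6 and 103 FPKM in control mice. Model mice lay below all control mice on both days for Krtap2-4, and below all treatment mice at day 15, with -1.31 (adjusted p = 0.00751) at day 15 and -1.06 (adjusted p = 0.0145) at day 10 against control and 0.9995 (adjusted p = 0.0132) for treatment against model. Group means of Krtap1-3 and Krtap1-4 were 264 ± 44.4 FPKM in treatment, 153 ± 39.2 FPKM in model and 335 ± 43.6 FPKM in control mice for Krtap1-3 and 171 ± 17.4 FPKM in treatment, 104 ± 33.7 FPKM in model and 216 ± 31.9 FPKM in control mice for Krtap1-4 at day 15. Krtap1-3 fell on both days (-1.15, adjusted p = 0.00622 at day 15 and -0.87, adjusted p = 0.0162 at day 10) and Krtap1-4 at day 15 (-1.09, adjusted p = 0.00777).

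The 3 genes on chromosome 10 belong to subfamilies that in human hair are made in the cuticle, the outer layer of the shaft. Krtap10-10 had 54.8, 59.1, 53.98 and 60.8 FPKM in treatment mice, 61.5, 24.98, 34.3 and 73.4 FPKM in model mice and 53.2, 63.01, 74.8 and 65.2 FPKM in control mice at day 15. At day 10 Krtap10-10 had 83.9, 72.96, 87.5 and 85.4 FPKM in treatment mice, 87.3, 44.98, 38.2 and 43.3 FPKM in model mice and 114, 81.1, 67.5 and 83.7 FPKM in control mice. Model replicate 1 of day 10 stood at 87.3 FPKM within the control range, with the other 3 below every control mouse, and the difference of -0.74 (adjusted p = 0.0642) was not called. Krtap10-4 (-0.80, adjusted p = 0.046) and Krtap12-1 (-0.85, adjusted p = 0.0336) fell at day 10, and the 3 differences of day 15, -0.56 to -0.51, were not called. Of the remaining high sulfur genes, Krtap27-1 fell at day 10 (-1.15, adjusted p = 0.0166), and Krtap16-1, Krtap24-1 and Krtap29-1 were called in none of the 4 main comparisons, with -0.55, -0.28 and -0.36 in model against control mice at day 15. Group means of Krtap29-1, the lowest of the class, were 11.2 ± 2.86 FPKM in treatment, 7.96 ± 2.26 FPKM in model and 10.4 ± 2.4 FPKM in control mice at day 15 and 12.8 ± 1.53 FPKM in treatment, 8.53 ± 3.46 FPKM in model and 12.5 ± 2.46 FPKM in control mice at day 10.

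The ultra-high sulfur genes encode the KAPs of highest cysteine content. In model against control mice 10 of 17 fell at day 15 (median -1.10) and 5 of 17 at day 10 (median -0.61), where 6.56% and 7.04% of all genes were called lower. In treatment against model mice 9 of 17 rose at day 15 (median 0.70), where 10.3% of all genes were called higher. Krtap4 gave 8 of the 10 calls of day 15. Of 8 Krtap4 genes, which in human hair are made in the cortex, 8 fell at day 15 (log2 differences -1.53 to -1.06), against 1 at day 10 (-0.93 to -0.41), and 7 rose in treatment against model mice at day 15 (0.69 to 1.05 over the 8). All 8 kept their call against control at day 15 in every fit that left out 1 library.

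Krtap4-1, the most abundant of them, had 271, 283, 237 and 341 FPKM in treatment mice, 228, 79.7, 152 and 149 FPKM in model mice and 462, 389, 229 and 401 FPKM in control mice at day 15. At day 10 Krtap4-1 had 186, 143, 139 and 227 FPKM in treatment mice, 141, 127, 79.1 and 94.2 FPKM in model mice and 269, 216, 123 and 197 FPKM in control mice. Krtap4-1 fell at day 15 (log2 difference -1.33, adjusted p = 0.0104), with -0.84 (adjusted p = 0.0533) at day 10, and rose by 0.97 (adjusted p = 0.0224) in treatment against model mice at day 15. Krtap4-8, one of the 3 Krtap4 genes of lowest mean, had 57.97, 37.9, 44.4 and 50.8 FPKM in treatment mice, 39.6, 19.5, 35.4 and 25.6 FPKM in model mice and 96.2, 75.04, 54.2 and 89 FPKM in control mice at day 15. At day 10 Krtap4-8 had 23.1, 16.6, 20.96 and 29.4 FPKM in treatment mice, 20.1, 16.99, 14.6 and 16.1 FPKM in model mice and 35.1, 22.2, 13.6 and 27.2 FPKM in control mice. Every model mouse of day 15 lay below every control mouse in both genes, while at day 10 the ranges overlapped. Krtap4-8 differed by -1.38 (SE 0.25, adjusted p = 0.00496) at day 15 and -0.44 (SE 0.25, adjusted p = 0.24) at day 10 in model against control, and by 0.69 (adjusted p = 0.0567) in treatment against model at day 15, the one Krtap4 gene not called there. Group means of Krtap4-2, Krtap4-6, Krtap4-7 and Krtap4-16 lay between 112 and 229 FPKM in treatment, 57.5 and 114 FPKM in model and 145 and 286 FPKM in control mice at day 15.

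Krtap4-9, which shares the 26-base run shown with Krtap4-8, had 60.99, 43.8, 48.2 and 46.5 FPKM in treatment mice, 40.3, 15.4, 31.6 and 20.7 FPKM in model mice and 92.2, 70.5, 47.3 and 97.7 FPKM in control mice at day 15. At day 10 Krtap4-9 had 23.4, 18.1, 23.01 and 27.96 FPKM in treatment mice, 17.6, 18.01, 12.9 and 19.1 FPKM in model mice and 37.2, 17.9, 14.1 and 26.9 FPKM in control mice. Its log2 differences were -1.51 (SE 0.28, adjusted p = 0.00543) at day 15 and -0.41 (SE 0.28, adjusted p = 0.348) at day 10 in model against control. Krtap4-13, the lowest of the subfamily, had 8.11, 5.54, 7.55 and 5.46 FPKM in treatment mice, 4.89, 1.87, 3.25 and 3.25 FPKM in model mice and 15.3, 8.8, 7.26 and 15.2 FPKM in control mice at day 15. At day 10 Krtap4-13 had 4.32, 2.83, 3.18 and 6.74 FPKM in treatment mice, 2.3, 3.82, 2.76 and 2.23 FPKM in model mice and 7.11, 4.86, 1.92 and 4.38 FPKM in control mice. In both genes no model mouse reached a control or treatment mouse at day 15, and the ranges overlapped at day 10. Krtap4-13 differed by -1.53 (adjusted p = 0.00604) at day 15 and -0.49 (adjusted p = 0.271) at day 10. In treatment against model mice at day 15 Krtap4-9 rose by 0.94 (adjusted p = 0.0251) and Krtap4-13 by 0.86 (adjusted p = 0.0443), and both calls were lost without model replicate 2 or 4 or treatment replicate 1. The change of the model-control difference from day 10 to day 15 was itself tested and called for none of the 55 genes by limma or by voom (0% of all genes). Among the 8 genes with an unadjusted p under 0.05 it was -1.10 for Krtap4-9 (95% interval -1.94 to -0.27, adjusted p = 1) and -0.94 for Krtap4-8 (95% interval -1.67 to -0.20).

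The 3 Krtap9 genes did not move alike. Krtap9-3 and Krtap9-1 fell at day 15 and rose in treatment against model mice, and Krtap9-5 did neither. Krtap9-3 had 578, 428, 595 and 541 FPKM in treatment mice, 411, 220.1, 306 and 304 FPKM in model mice and 688, 706, 541 and 685 FPKM in control mice at day 15. At day 10 Krtap9-3 had 275, 209, 229.9 and 332 FPKM in treatment mice, 307, 169, 97.2 and 110.1 FPKM in model mice and 499, 297, 388 and 360.1 FPKM in control mice. Model mice were below all others at day 15, and 3 of 4 were below all control mice at day 10. Krtap9-3 differed by -1.10 (adjusted p = 0.0165) at day 15 and -1.30 (adjusted p = 0.00559) at day 10 in model against control, and by 0.81 (adjusted p = 0.0377) in treatment against model at day 15, lost without any 1 of 6 libraries. Krtap17-1, a cuticle gene in human hair, had 141, 125, 155 and 132 FPKM in treatment mice, 132, 62.7, 77.8 and 140.4 FPKM in model mice and 135, 153, 165 and 150.5 FPKM in control mice at day 15. At day 10 Krtap17-1 had 165, 143, 144 and 152 FPKM in treatment mice, 177, 98.9, 96.5 and 96.9 FPKM in model mice and 214, 172, 149.9 and 163 FPKM in control mice. Model replicates 2, 3 and 4 of day 10 lay between 96.5 and 98.9 FPKM, below all other mice of that day, and replicate 1 was at 177. Neither difference was called for Krtap17-1, at -0.62 (adjusted p = 0.0591) at day 15 and -0.61 (adjusted p = 0.0565) at day 10.

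Krtap31-1, Krtap31-2 and Krtap9-5, the trio with similar upstream sequence, had the 3 lowest model-control log2 differences of day 10 among the 55 genes and were not called at day 15. At day 10 Krtap31-1 had 48.3, 30.6, 24.6 and 57.3 FPKM in treatment mice, 44.1, 13.8, 7.46 and 4.62 FPKM in model mice and 97.1, 40.5, 39.1 and 61.7 FPKM in control mice. Krtap31-2 on that day had 42.9, 28.6, 26.2 and 54.98 FPKM in treatment mice, 42.3, 15.7, 6.99 and 5.28 FPKM in model mice and 102, 42.3, 36.6 and 60.8 FPKM in control mice. Krtap9-5 on that day had 23.97, 18, 15.8 and 32.6 FPKM in treatment mice, 19, 8.96, 3.82 and 2.71 FPKM in model mice and 58.2, 24.1, 16.6 and 24.7 FPKM in control mice. In all 3 genes model replicates 2, 3 and 4 were below every treatment and control mouse and replicate 1 was not. At day 15 Krtap31-1 had 22.98, 48.7, 29.5 and 57.5 FPKM in treatment mice, 65.5, 22.5, 15.3 and 45.9 FPKM in model mice and 52.4, 38.7, 37.3 and 41.2 FPKM in control mice. Krtap31-2 at day 15 had 14.2, 44.05, 13.4 and 55.3 FPKM in treatment mice, 61.5, 19.7, 9.48 and 49.04 FPKM in model mice and 34.4, 18.2, 29.3 and 18.98 FPKM in control mice. Krtap9-5 at day 15 had 7.41, 30.1, 6.49 and 30.5 FPKM in treatment mice, 32.5, 9.02, 6.1 and 21.1 FPKM in model mice and 15.01, 8.99, 15.6 and 9.45 FPKM in control mice. Here the 3 groups overlapped, with treatment replicates 2 and 4 and model replicates 1 and 4 high in all 3 genes. Model against control at day 10 was -2.08 (SE 0.51, adjusted p = 0.0143) for Krtap31-1, -2.04 (SE 0.60, adjusted p = 0.0296) for Krtap31-2 and -1.89 (SE 0.57, adjusted p = 0.0336) for Krtap9-5, and at day 15 the differences were -0.38, 0.18 and 0.23. The day 10 calls of Krtap31-2 and Krtap9-5 were lost without any 1 of 6 libraries, and that of Krtap31-1 without model replicate 3 or 4. The change of the difference between days was 2.22 for Krtap31-2 (95% interval 0.46 to 3.98) and was not called (adjusted p = 1). Krtap31-2 and Krtap9-5 were chosen for description after their values were seen.

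**Figure D3:**
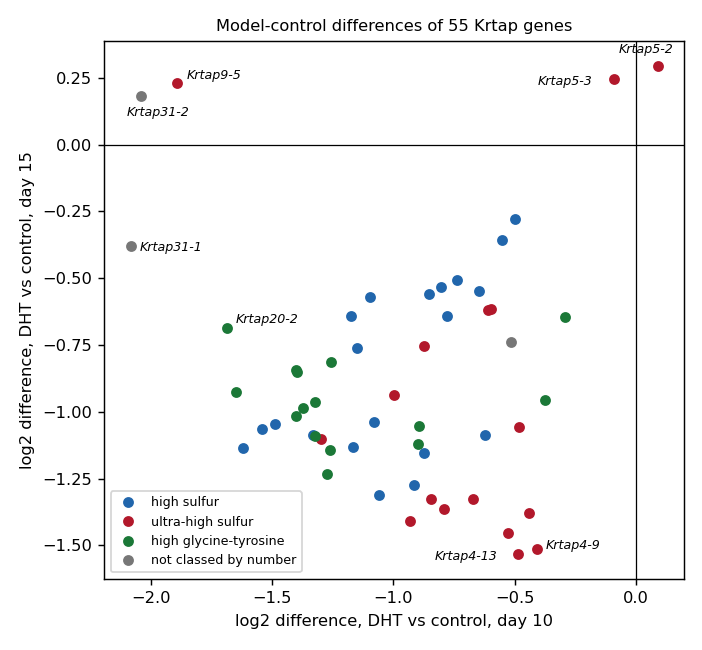
Model-control log2 differences of the 55 Krtap genes at day 10 (horizontal axis) and day 15 (vertical axis), coloured by class, on the log2(FPKM + 1) scale. Most points lie below 0 on both axes, Krtap31-1, Krtap31-2 and Krtap9-5 stand at the left (-2.08, -2.04 and -1.89 at day 10), Krtap4-9 and Krtap4-13 at the bottom (-1.51 and -1.53 at day 15), and Krtap5-2 and Krtap5-3 near 0 at day 10.

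The Krtap5 genes of chromosome 7, cuticle proteins in human hair, were low in level. Krtap5-5, the most abundant, had 20.8, 29.3, 21.9 and 28.01 FPKM in treatment mice, 29.6, 9.92, 13.1 and 32.6 FPKM in model mice and 26.5, 31.7, 28.7 and 31.7 FPKM in control mice at day 15. At day 10 Krtap5-5 had 31.3, 26.1, 28.3 and 31.3 FPKM in treatment mice, 33.5, 16.4, 14.7 and 16.1 FPKM in model mice and 46.4, 26.7, 18.9 and 31.4 FPKM in control mice. Groups overlapped on both days, and model against control was -0.62 (adjusted p = 0.179) at day 15 and -0.60 (adjusted p = 0.195) at day 10. Krtap5-1 (-0.87, adjusted p = 0.0473) and Krtap5-4 (-0.9954, adjusted p = 0.0408) fell at day 10. Krtap5-2 lay furthest from the direction of the rest in model against control mice, at 0.29 (95% interval -0.95 to 1.54) at day 15 and 0.09 (95% interval -1.15 to 1.33) at day 10, and its sign was negative without model replicate 4 of day 15 and without model replicate 1 or control replicate 3 or 4 of day 10. In treatment against model mice at day 15 it differed by -0.67 (-1.91 to 0.58), and by 0.04 without model replicate 4.

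Krtap28-13, alone on chromosome 1, had the smallest treatment-model difference of day 10 (0.30, adjusted p = 0.797). At day 15 Krtap28-13 had 26.9, 31.7, 51.1 and 56.2 FPKM in treatment mice, 61.4, 28.03, 27.3 and 71.9 FPKM in model mice and 76.9, 72.7, 69.5 and 70.8 FPKM in control mice. At day 10 Krtap28-13 had 72.7, 55.5, 42.6 and 71.8 FPKM in treatment mice, 85.8, 42.9, 35.4 and 40.4 FPKM in model mice and 115, 57.6, 47.8 and 71.1 FPKM in control mice. At day 15 all treatment mice lay below all control mice, and model mice overlapped both groups. None of the 4 main comparisons called Krtap28-13, with -0.74 (adjusted p = 0.141) at day 15 and -0.52 (adjusted p = 0.311) at day 10 in model against control.

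**Figure D4:**
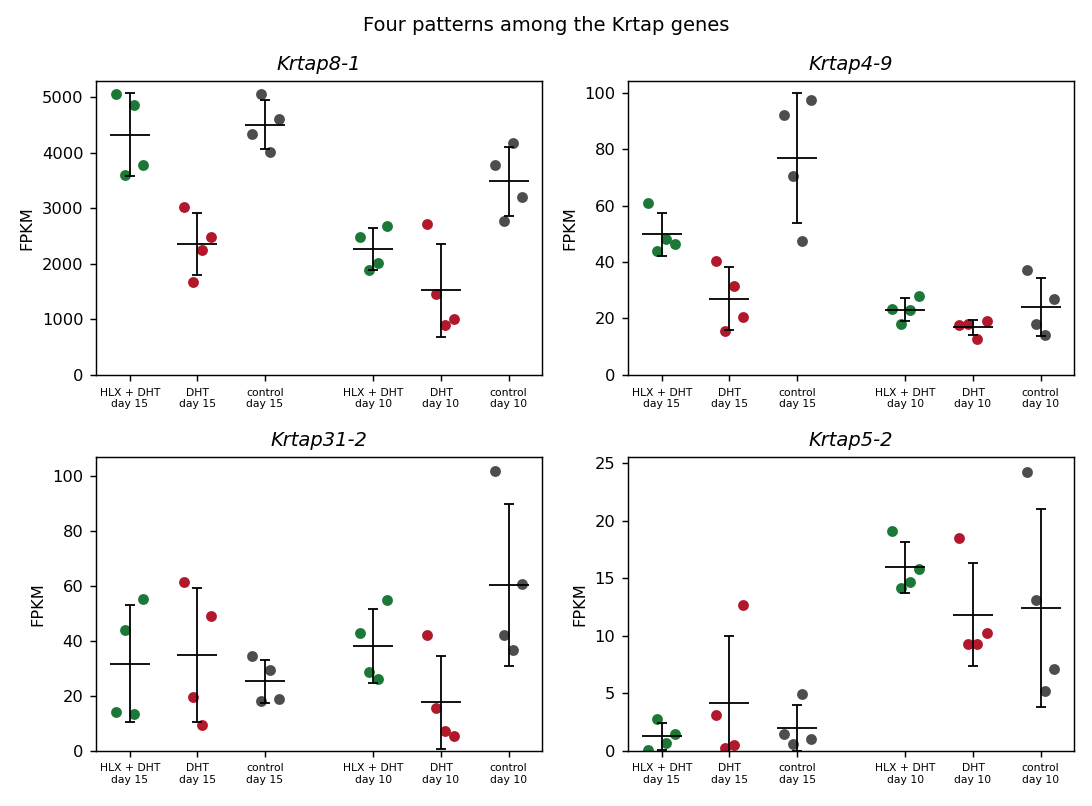
FPKM of 4 Krtap genes in each mouse (points) with group mean (horizontal mark) and SD (whiskers, n = 4), for treatment (HLX + DHT), model (DHT) and control mice at day 15 and day 10. Krtap8-1 is lower in model than in control mice on both days, and the model-control log2 difference of Krtap4-9 is -1.51 at day 15 and -0.41 at day 10. Krtap31-2 is low in 3 of 4 model mice of day 10, and Krtap5-2 is lower at day 15 (0.0894 to 12.7 FPKM) than at day 10 (5.21 to 24.3 FPKM) in all mice but model replicate 4 of day 15.

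Treatment mice were also set against control mice. At day 15 limma called none of the 55 genes (0.284% of all genes were called lower, 0.0307% higher and 0.314% in either direction), 3 had an unadjusted p under 0.05, and voom also called 0. The median log2 difference was -0.29 over the 55 genes and -0.02 over all. For Krtap8-1 it was -0.07 (95% interval -0.60 to 0.46) and for Krtap3-2 -0.18 (-0.66 to 0.30), intervals that leave room for differences of either sign. The lowest p belonged to Krtap4-8, at -0.69 (-1.21 to -0.17, adjusted p = 0.14), in which 3 of 4 treatment mice were below every control mouse. At day 10 the median was -0.26, with class medians of -0.53 in high glycine-tyrosine, -0.23 in high sulfur and -0.12 in ultra-high sulfur genes, and Krtap20-2 was the 1 gene called. The call of Krtap20-2 was lost without treatment replicate 2 or 3, without control replicate 4 and without the 4 libraries of low Y-linked level. When only these groups were fitted, 8 of the 55 were called lower. That fit called 2229 of the 13039 genes in either direction, in place of 423. Its share of all genes called lower alone is not given here. Model libraries enter both main comparisons of a day, and treatment and control libraries enter this one too, so the 3 are not independent.

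Control mice, which received no DHT, also differed between days. At day 15 against day 10, 12 of the 55 genes rose and 1 fell, where 1.48% of all genes were called higher, 3.33% lower and 4.81% in either direction. The median log2 difference was 0.38 over the 55 genes and -0.07 over all. Of the 12 that rose, 7 were Krtap4 genes, beside Krtap1-3, Krtap1-4, Krtap2-4, Krtap3-2 and Krtap9-1, all on chromosome 11. Krtap4-8 had 96.2, 75.04, 54.2 and 89 FPKM at day 15 and 35.1, 22.2, 13.6 and 27.2 FPKM at day 10 in control mice, and Krtap4-9 had 92.2, 70.5, 47.3 and 97.7 FPKM at day 15 and 37.2, 17.9, 14.1 and 26.9 FPKM at day 10. All 4 mice of day 15 lay above all 4 of day 10 in both genes, with log2 differences of 1.68 (SE 0.25, adjusted p = 0.00135) and 1.68 (SE 0.28, adjusted p = 0.00513). High glycine-tyrosine genes, all on chromosome 16, had a median difference of 0.38 with no gene called by limma, among them Krtap8-1 at 0.38 (adjusted p = 0.367).

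Krtap5-2 fell with time. In treatment mice it had 0.0894, 2.76, 0.641 and 1.42 FPKM at day 15 and 19.1, 14.1, 14.7 and 15.8 FPKM at day 10. In model mice it had 3.11, 0.219, 0.497 and 12.7 FPKM at day 15 and 18.5, 9.25, 9.28 and 10.2 FPKM at day 10, and in control mice 1.42, 0.584, 4.96 and 0.987 FPKM at day 15 and 24.3, 13.1, 5.21 and 7.1 FPKM at day 10. The ranges of both days did not overlap in treatment and control mice, and in model mice replicate 4 of day 15 was above 3 mice of day 10. The log2 differences of day 15 against day 10 were -3.07 (adjusted p = 0.00524) in treatment, -1.95 (adjusted p = 0.0466) in model and -2.16 (adjusted p = 0.0427) in control mice. The Krtap5-2 calls in model and in control mice were each lost without any 1 of 6 libraries, and that in treatment mice held in all 8 fits that left out 1. Krtap5-3, its neighbour, fell in treatment mice (-2.24, adjusted p = 0.00695), with -1.11 (adjusted p = 0.127) in model and -1.45 (adjusted p = 0.0672) in control mice. Krtap31-2 and Krtap9-5 had -1.17 and -1.15 in control mice, neither of them called, although their day 15 values lay below all day 10 values.

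**Figure D5:**
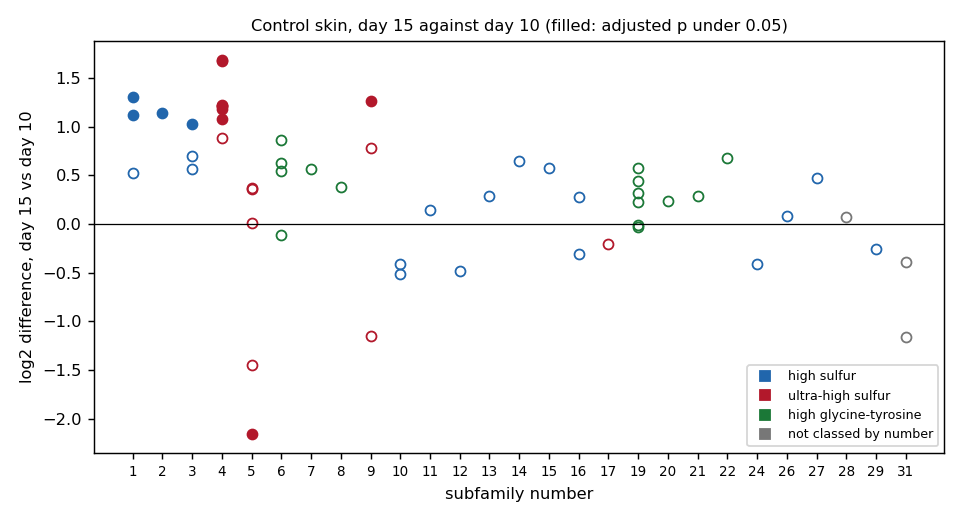
Log2 difference of day 15 against day 10 in control mice for each of 55 Krtap genes, by subfamily number, coloured by class (filled points have an adjusted p under 0.05). The Krtap4 genes lie between 0.88 and 1.68, and Krtap5-2 lies at -2.16.

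With DHT, day 15 against day 10 gave 19 higher and 2 lower genes in treatment mice (2.11% and 7.53% of all genes, 9.64% in either direction) and 8 higher and 1 lower in model mice (1.62% and 6.85%, 8.47% in either direction), with medians of 0.61 and 0.64 over the 55 genes. Krtap1-3, Krtap2-4, Krtap7-1, Krtap9-3, Krtap14, Krtap15 and Krtap20-2 rose in both these groups, for example Krtap7-1 by 1.12 in treatment and 0.94 in model mice. No gene of the 55 was called in the test of whether the treatment-model difference changed between days (0 at an unadjusted p under 0.05, 0 by voom; of all genes 0.0383% were called lower, 0.0614% higher and 0.0997% in either direction). The control count was 5 without control replicate 2 of day 10 or replicate 1, 2 or 4 of day 15. In these fits 123, 122, 102 and 99 of all genes were called in place of 627. It was 7 without control replicate 4 of day 10, where 195 of all genes were called. When only these groups were fitted it was 23 (20 higher), where 1938 of all genes were called. The treatment count was 4 without replicate 2 of day 10 or replicate 1 of day 15 (425 and 487 of all genes in place of 1257) and 1 without the libraries of low Y-linked level (967 of all genes). The model count ran from 0 (without replicate 3 of day 15, or fitting only these groups, where 146 and 8 of all genes were called in place of 1104) to 23 (without replicate 1 of day 10, where 912 of all genes were called). Without replicate 2 or 3 of day 10 the model count was 2, where 391 and 480 of all genes were called. It was 1 without replicate 4 of day 10 (267 of all genes). Without replicate 1 of day 15 it was 5 (1522 of all genes), and without replicate 2 of day 15 it was 21 (1335).

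Other genes of the hair fiber are given beside the KAPs, from lists of textbook genes. Of all genes tested, 6.56% were called lower at day 15 and 7.04% at day 10 in model against control mice. In treatment against model mice 10.3% were called higher at day 15. Of 16 hair shaft keratins, the filament proteins that KAPs surround, 3 fell at day 15 (median -0.60) and 12 at day 10 (median -1.16) in model against control mice, and 11 rose in treatment against model mice at day 15 (median 0.81). In model against control mice at day 10 Krt31, a cortex keratin, differed by -1.12 (adjusted p = 0.0073) and Krt85, an early keratin of matrix and cortex, by -0.65 (adjusted p = 0.025). Of 9 inner root sheath genes tested, which form the sleeve around the growing shaft, 7 fell at day 15, 8 at day 10 and 8 rose with treatment at day 15, Krt71 among them (0.80 at day 15, adjusted p = 0.00511). Of 11 regulators of hair matrix and cortex, 4 fell at day 15, 6 at day 10 and 6 rose with treatment at day 15. Foxn1, a transcription factor needed for normal hair shafts, differed by -0.87 in model against control mice at day 10 (adjusted p = 0.00934), and Hoxc13, a factor that drives hair keratin genes, by -0.39 (adjusted p = 0.18). Of a mixed list of 9 genes (S100a3, Padi3, Tgm3, Selenbp1, Crym, Dsg4, Dsc2, Prr9 and Msx2), 7 fell on each day. With treatment at day 15, 6 of the 9 rose, among them Padi3, a peptidylarginine deiminase (0.69, adjusted p = 0.0138). Msx2 is counted among the 11 regulators too. Tgm3, a transglutaminase, differed by -1.28 in model against control mice at day 10 (adjusted p = 0.00363). No gene of these 4 lists was called in treatment against model mice at day 10 by limma.

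Markers of some other cell types were called in the same comparisons, and those of others were not. Of all genes tested, 4.23% were called higher and 6.56% lower in model against control mice at day 15. At day 10 these shares were 6.79% and 7.04%. In treatment against model mice they were 10.3% and 9.32% at day 15, and 0.0920% and 0.0997% at day 10. Of 8 macrophage genes, 2 rose at day 15 and 8 at day 10 in model against control mice and 2 fell in treatment against model mice at day 15. Their sum was 342 to 1410 FPKM in treatment, 892 to 1420 FPKM in model and 466 to 786 FPKM in control mice at day 15, and 644 to 922 FPKM in treatment, 736 to 1060 FPKM in model and 313 to 413 FPKM in control mice at day 10. Of 5 melanocyte genes, which mark the pigment cells of growing follicles, 3 rose in treatment against model mice at day 15 (sums 186 to 234 FPKM in treatment, 91.3 to 171 FPKM in model and 151 to 197 FPKM in control mice). Of 6 genes of the epidermis between follicles, 2 fell in model against control mice at day 15. In the 4 main comparisons limma called no gene of the skeletal muscle (6), adipocyte (4), sebocyte (4) or proliferation (5) lists. Of 4 Y-linked genes 2 fell in treatment against model mice at day 15, and of 3 kidney genes tested 3 fell at day 10 in both model against control and treatment against model mice. The part of these lists in the KAP results was not tested.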

How the data were processed

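The authors deposited 1 table of FPKM (fragments scaled to gene length and to library size) for 18892 genes in 24 skin libraries, 1 per mouse. Per the labels, RNA was extracted with TRIzol and poly(A) libraries were made with the VAHTS Universal V6 kit, and per the submitters' processing notes fastp, HISAT2 and HTSeq were used with build GRCm39 (versions not given in the sources used here). The FPKM columns were transformed to log2(FPKM + 1), so fold changes of genes at low level are understated. Genes with at least 1 FPKM in at least 4 libraries (13039, with 5853 removed) were fitted with limma 3.58.1 in R 4.3.3, with 1 mean per group of 4 mice over all 24 libraries, and with the moderated variance set to follow level and to be robust to outliers. Each of 11 comparisons was tested two-sided with Benjamini-Hochberg adjustment over the 13039 genes, and the method was checked on simulated data.

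FPKM values of 18715 of 18715 genes above 0 were whole multiples of 1 read (100%, tolerance 0.01 to 0.05 of a read), which gave whole reads and depths. Voom was run on these reads as an alternative. The spread of a gene was estimated over all 6 groups together. Its SE therefore does not follow the spread between the 4 mice of any single group. RefSeq sequences (build GRCm38.p6) matched 50 of the 55 genes by gene identifier. Identity, shared runs and motifs were computed in Python 3.11.15 with Biopython 1.88, and transcripts of GENCODE vM21 were cut into 100-base windows to find shared sequence.

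The members and gene lists were chosen with earlier results of these data known. Values in every library are given for the highest-mean gene of each subfamily with at least 2 genes, single-gene subfamilies with a mean of at least 100 FPKM, and, in each of the 4 main comparisons, the 4 genes of smallest p and the one furthest against the median. The classes follow the subfamily number. No correlation across samples was tested, and no adjustment was made over the 55 genes alone.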

Additional observations from a re-analysis of the deposited data

Results flagged for a closer look

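The values of 29 genes, those taken by the rule for named genes, and the summed FPKM of the 55 were screened in each of the 6 groups. The other genes, among them Krtap31-2 and Krtap9-5, were not. In 14 of these 180 groups of 4 mice, the highest or lowest mouse stood apart from the other 3, its gap to the nearest exceeding the 95% critical value of Dixon's test. Chance gives about 1 in 20 such groups, and the genes are not independent of each other.

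Model replicate 1 of day 10 accounted for 6 of the 14, all above the rest of its group. It had 33.5 FPKM of Krtap5-5 (others 14.7 to 16.4 FPKM), 18.5 FPKM of Krtap5-2 (9.25 to 10.2 FPKM) and 87.3 FPKM of Krtap10-10 (38.2 to 45.0 FPKM). It also had 177 FPKM of Krtap17-1 (96.5 to 98.9 FPKM), 148 FPKM of Krtap26-1 (70.7 to 78.3 FPKM) and 85.8 FPKM of Krtap28-13 (35.4 to 42.9 FPKM).

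Control replicate 3 of day 15 accounted for 4, all below the rest. It had 909 FPKM of Krtap1-5 (others 1233 to 1254 FPKM), 628 FPKM of Krtap6-1 (925 to 984 FPKM), 541 FPKM of Krtap9-3 (685 to 706 FPKM) and 268 FPKM of Krtap3-2 (398 to 404 FPKM).

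At day 10, control replicate 1 was high for Krtap19-5, at 1045 FPKM (others 634 to 667 FPKM), and for Krtap3-3, at 559 FPKM (413 to 431 FPKM). Control replicate 2 was low for Krtap26-1, at 132 FPKM (157 to 158 FPKM), and control replicate 4 was high for Krtap20-2, at 3.98 FPKM (2.15 to 2.42 FPKM).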

How the results depend on the processing

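A pseudocount of 0.1, no filter on low values, median-of-ratios scaling and voom on recovered reads left every count of called Krtap genes within 1.5 times of the reported one, and for the 54 values of genes given in full, none changed call under the first and 1 under the scaling (Krtap26-1 in model against control at day 15, adjusted p = 0.0511). Fitting only the groups compared gave 0 called genes for treatment against model at day 15 (0 of all 13039 genes too) and 8 for treatment against control at day 10 (2229 of all genes, in place of 423). For day 15 against day 10 it gave 23 in control mice (1938 of all genes, in place of 627) and 0 in model mice (8, in place of 1104). The spread then comes from these groups alone, and calls rose in some comparisons and fell in others. Libraries of a group correlated least at day 15 in treatment (lowest 0.9283) and model mice (0.9428), against at least 0.9794 in the other groups. The part of this in the counts was not tested. Leaving out the 4 treatment libraries of low Y-linked level, a limit chosen after seeing the data, gave 1 for treatment against model at day 15 (3845 of all genes, in place of 2563), 0 for treatment against control at day 10 and 1 for day 15 against day 10 in treatment mice. The lower limit planned for that check matched no library and gave no value.

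With 1 library left out at a time, counts ran from 15 to 36 (model against control, day 15), 15 to 42 (day 10), 2 to 25 (treatment against model, day 15), 0 to 17 (day 10) and 0 to 1 (treatment against control, day 10). Calls among all genes at these ends were 501 and 2240 for model against control at day 15 (1408 in the full fit) and 536 and 2405 at day 10 (1803). For treatment against model they were 1684 and 2947 at day 15 (2563), and 82 at the 17 of day 10 (25). For day 15 against day 10 the Krtap counts ran from 4 to 23 in treatment, 0 to 23 in model and 5 to 16 in control mice, and the remaining counts stayed at 0. At these upper ends 2531, 912 and 828 of all genes were called, in place of 1257, 1104 and 627. Of the values of single genes, 340 kept their call, 83 lost it, 4 gained it and 5 turned sign, all 5 of Krtap5-2: model against control at day 15 was -0.41 without model replicate 4, at day 10 it was -0.13 without model replicate 1, -0.21 without control replicate 3 and -0.08 without control replicate 4, and treatment against model at day 15 was above 0 without model replicate 4. Over all fits without 1 library, Krtap5-2 ran from -0.41 to 0.76 in model against control at day 15 and from -0.21 to 0.47 at day 10, and from -1.13 (without model replicate 2) to 0.0358 in treatment against model at day 15. The cause was not tested.

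Replicate numbers are shared between groups, and deviations of same-numbered libraries correlated from -0.63 to 0.51, so the numbers were not taken to pair mice. With the replicate number as a block the count was 16 for day 15 against day 10 in model mice (948 of all genes, in place of 1104). For model against control it was 33 at day 15 (1451 of all genes, in place of 1408) and 40 at day 10 (1871, in place of 1803). It was 24 for treatment against model at day 15 (2428, in place of 2563), and no call of the 54 gene values changed.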
